A study of Mus musculus with 8 samples.

Results

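The NMDA receptor subunit genes are 7 genes of the mouse genome, *Grin1*, *Grin2a*, *Grin2b*, *Grin2c*, *Grin2d*, *Grin3a* and *Grin3b*. They were taken by gene symbol from a table of read counts with 24015 entries, and all 7 were found. RNA from the brains of 8 mice at postnatal day 7 (P7) was sequenced, each library being from 1 animal of the inbred C57BL/6N strain. The mice differed in the number of copies they carried of a Cas9-made deletion of 1b, a conserved non-coding interval of *Scn1a*, the gene for the sodium channel subunit NaV1.1. All mutant animals descend from a line bred around a single deletion. There were 2 male WT mice with 0 deleted alleles, 4 1b+/- mice with 1 (replicates 1 and 2 male, replicates 3 and 4 female), and 2 female 1b-/- mice with 2. Genotype and sex therefore cannot be told apart between WT and 1b-/-.

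NMDA receptors are cation channels. The usual forms pass most current when glutamate and a co-agonist, glycine or D-serine, are bound and the membrane is depolarized. Each channel is a tetramer that needs GluN1, the product of *Grin1*, which binds the co-agonist. The partners are GluN2 subunits (*Grin2a* to *Grin2d*), which bind glutamate and set the kinetics, or the glycine-binding GluN3 subunits (*Grin3a* and *Grin3b*). In the rodent forebrain *Grin2b* is the main GluN2 gene around birth, and *Grin2a* increases over the first postnatal weeks, so the ratio of *Grin2b* to *Grin2a* is a common measure of receptor maturation. *Grin2c* is best known from the cerebellum, *Grin2d* from the brainstem, diencephalon and interneurons, and *Grin3a* is highest in early postnatal brain.

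In the GENCODE annotation of mm9, the build of the counts, the genes lie on 7 chromosomes. *Grin1* is at chr2:25146701-25174707, *Grin2a* at chr16:9577803-9995014, *Grin2b* at chr6:135679844-136123529, *Grin2c* at chr11:115110483-115128557, *Grin2d* at chr7:53087253-53126298 and *Grin3a* at chr4:49674483-49858616, all on the minus strand. *Grin3b* is on the plus strand at chr10:79433460-79439935. Their merged exons span 3.3 kb (*Grin3b*) to 15.78 kb (*Grin3a*), and their coding sequence 2.88 kb (*Grin1*) to 4.45 kb (*Grin2b*).

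The GluN2 genes are paralogs, so the sequence they share bears on whether reads can be assigned to 1 of them. The reads were 50 bases long, and no 50-base word was shared between the annotated coding transcripts of any of the 21 pairs of members. The longest exact match in any pair was 34 bases, between *Grin2b* and *Grin2c*. The longest exact match between *Grin2a* and *Grin2b*, the pair of the ratio, is shown because within it these genes cannot be told apart. It is 24 coding bases that cross a splice junction, with the bases of the downstream exon in capitals:
*Grin2a* and *Grin2b*: agtgacaagaagTTCCAGAGACCT
In *Grin2a* the 12 lower-case bases are in exon 10 of transcript Grin2a-001 (chr16:9653489-9653500) and the 12 capitals in exon 11 (chr16:9644341-9644352). In *Grin2b* they are in exons 11 (chr6:135722211-135722222) and 12 (chr6:135691089-135691100) of transcript Grin2b-201. A full-length read without errors therefore has bases that differ between these genes. *Grin1os*, an antisense gene named for *Grin1*, had 18 counts over the 8 libraries, against 3288 for *Grin1*.

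Counts per library ranged from 2947770 (1b+/- replicate 4) to 20878772 (1b+/- replicate 3). Levels are given as CPM, counts per 1000000 counts of a library, with library sizes scaled by the trimmed mean of M values (TMM). A count of 0 was taken to allow 3 counts, which are worth 0.145 CPM at the greatest depth and 1.002 CPM at the lowest. Intervals for single libraries are exact 95% intervals and, like these limits, cover counting error only. The library labels were checked with *Scn1a*, at 42.8 ± 3.32 CPM in WT (SD, n = 2), 22.5 ± 4.91 in 1b+/- (n = 4) and 2.59 ± 0.834 in 1b-/- (n = 2), in the order of the genotypes with no overlap. The sample labels give the tissue as hippocampus, and the methods of the study give forebrain for P7. The 10 hippocampal markers averaged from 0.153 CPM (*Spink8*) to 281 CPM (*Neurod2*, which the neocortex also expresses), with *Lct* at 0.742, *Tdo2* at 0.625, the dentate gyrus gene *Prox1* at 19.7 and *Zbtb20* at 73.5. The 8 cerebellar markers averaged from 0.134 CPM (*Gabra6*, of granule cells) to 211 CPM (*Zic1*). Summed marker lists set some libraries apart. The 9 midbrain and hindbrain markers came to 35.9 CPM in 1b+/- replicate 1 and 2.50 to 15.2 in the others. The 6 choroid plexus markers came to 23.7 CPM in 1b+/- replicate 2 and 179 to 1019 in the others.

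*Grin2b* was the most abundant subunit transcript in all 8 libraries, and no subunit gene passed the test between genotypes. To compare genes, CPM were divided by length. Per kb of exon, *Grin2b* averaged 24.2 ± 1.80 CPM (SD, n = 8), *Grin3a* 5.35 ± 1.33, *Grin1* 4.32 ± 0.858, *Grin2d* 0.542 ± 0.221, *Grin2c* 0.374 ± 0.155, *Grin2a* 0.367 ± 0.127 and *Grin3b* 0.291 ± 0.181. The order was the same per kb of coding sequence, at 44.6, 24.8, 14.6, 0.801, 0.506, 0.443 and 0.319. The levels fell into 3 tiers whose ranges over libraries did not overlap. *Grin2b* stood alone at 21.6 to 27.7 CPM per kb of exon. *Grin3a* (2.96 to 6.97) and *Grin1* (3.29 to 5.75) overlapped each other, and the 4 lowest genes, at 0 to 0.854, could not be put in an order beyond their spread.

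**Figure D1:**
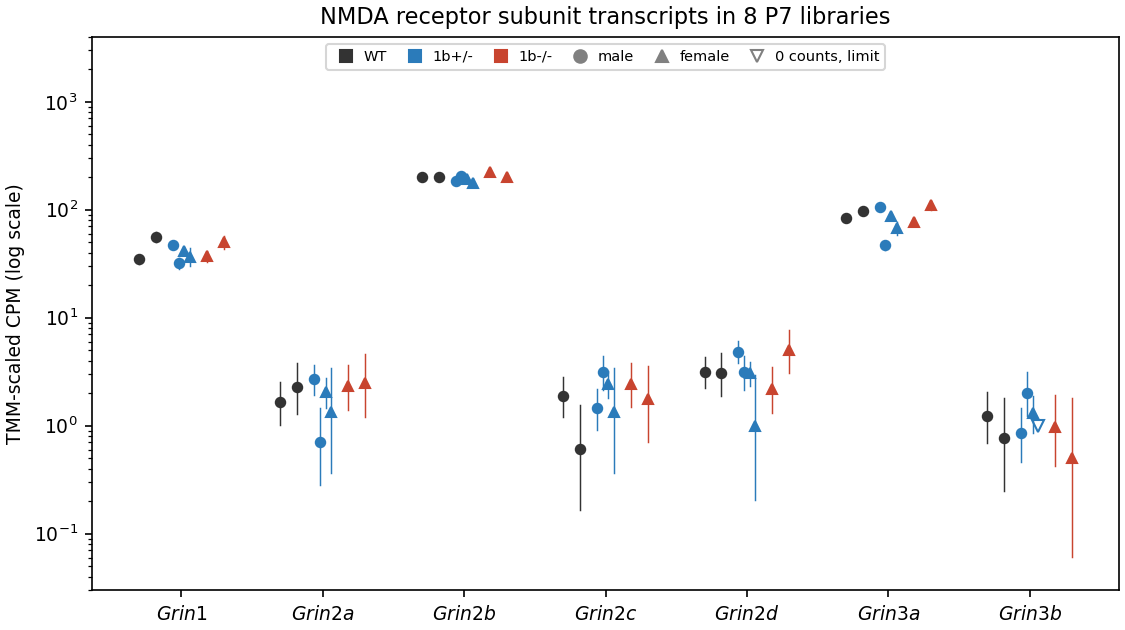
TMM-scaled CPM (log axis) of the 7 subunit genes, with 1 point per library coloured by genotype (circles male, triangles female), lines for exact 95% counting intervals and an open triangle at the 3-count limit for a count of 0. *Grin2b* sits between 176 and 226 CPM in every library and the genotypes overlap for all genes but *Grin2a* in 1b-/- against WT. CPM are not divided by length, so heights are not compared between genes.

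*Grin1* encodes the subunit that every NMDA receptor needs. It was at 35.0 and 55.8 CPM in WT, at 47.0, 31.9, 41.7 and 36.4 CPM in 1b+/- replicates 1 to 4, and at 37.2 and 50.1 CPM in 1b-/-. The WT animals held the highest value and the second lowest, so the other genotypes lay largely within the WT range. The group means were 45.4 ± 14.7 CPM in WT (SD, n = 2), 39.2 ± 6.53 in 1b+/- (n = 4) and 43.6 ± 9.09 in 1b-/- (n = 2). The coefficient of variation over the 8 libraries was 19.9%, against 5.91% from counting alone. The fitted log2 fold change was -0.19 ± 0.22 (SE) for 1b+/- and -0.06 ± 0.26 for 1b-/-, each relative to WT. These comparisons, like the others against WT, use the same WT libraries.

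*Grin2b*, the juvenile GluN2 gene, varied least. It was at 200.01 and 200.59 CPM in WT, at 186, 205, 191 and 176 CPM in 1b+/- replicates 1 to 4, and at 226 and 200.04 CPM in 1b-/-. The lowest value was in the shallowest library and the highest in 1b-/- replicate 1, and the genotypes overlapped. Group means were 200.3 ± 0.406 CPM in WT (SD, n = 2), 189 ± 11.8 in 1b+/- (n = 4) and 213 ± 18.3 in 1b-/- (n = 2). Over all libraries the coefficient of variation was 7.41%, against 2.68% from counting alone. In the edgeR quasi-likelihood fit, the log2 fold change was -0.08 in 1b+/- against WT (95% interval -0.35 to 0.19), 0.09 in 1b-/- against WT (-0.23 to 0.41) and 0.17 in 1b-/- against 1b+/- (-0.10 to 0.44). As folds, the intervals ran from 0.784 to 1.14, from 0.854 to 1.33 and from 0.930 to 1.36. In RNA from whole tissue, fewer cells of a type and less RNA per cell cannot be told apart, here or for any other gene.

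*Grin2a*, the GluN2 gene of the mature forebrain, was close to the limit of these libraries, with 158 counts in all. The counts were 20 and 15 in WT, 41, 7, 42 and 4 in 1b+/- replicates 1 to 4, and 19 and 10 in 1b-/-. On the scaled levels these gave 1.65 and 2.30 CPM in WT, 2.71, 0.707, 2.04 and 1.34 CPM in 1b+/-, and 2.33 and 2.50 CPM in 1b-/-. Both 1b-/- values were above both WT values, though the nearest pair, 2.33 and 2.30 CPM, was well within its counting intervals. Replicates 1 and 2 of 1b+/- held the highest and the lowest value of all. The mean was 1.98 ± 0.456 CPM in WT (SD, n = 2), 1.70 ± 0.865 in 1b+/- (n = 4) and 2.41 ± 0.126 in 1b-/- (n = 2). The log2 fold change of 1b-/- against WT was 0.31 with a 95% interval of -0.999 to 1.61. As a fold this interval runs from 0.50 to 3.05, so low counts and 2 animals per group leave the change poorly determined.

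*Grin2c* and *Grin2d* were also low. *Grin2c* was at 1.90 and 0.613 CPM in WT, at 1.45, 3.13, 2.42 and 1.34 CPM in 1b+/- replicates 1 to 4, and at 2.45 and 1.75 CPM in 1b-/-. *Grin2d* was at 3.14 and 3.06 CPM in WT, at 4.82, 3.13, 3.05 and 1.002 CPM in 1b+/-, and at 2.20 and 5.01 CPM in 1b-/-. For each gene the genotypes overlapped, and the lowest *Grin2d* value rested on 3 counts in the shallowest library. *Grin2c* had the largest fitted difference from WT of the 7 genes, with a log2 fold change of 0.68 ± 0.52 (SE) in 1b+/- and 0.67 ± 0.62 in 1b-/-. The low *Grin2c* value of WT replicate 2 came from 4 counts. Without WT replicate 1 the *Grin2c* estimate for 1b+/- against WT was 1.80 (unadjusted p = 0.0463, adjusted p = 1.0, edgeR quasi-likelihood), and without WT replicate 2 it was 0.18. The summed level of the 8 cerebellar markers was 340 and 373 CPM in WT, 247 to 473 in 1b+/- and 311 and 369 in 1b-/-, and the library with the highest sum, 1b+/- replicate 2, also had the highest *Grin2c*. In that library *Zic1* alone accounted for 335 CPM of the cerebellar sum. The part of tissue make-up in the *Grin2c* values was not tested.

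*Grin3a*, the GluN3 gene of the early postnatal brain, was far above the other GluN3 gene. It was at 84.0 and 96.5 CPM in WT, at 106.9, 46.8, 87.4 and 67.1 CPM in 1b+/- replicates 1 to 4, and at 77.4 and 109.9 CPM in 1b-/-. The span within 1b+/- held both WT values, and 1b+/- replicate 2 had the lowest level of the 8 libraries. Means were 90.3 ± 8.86 CPM in WT (SD, n = 2), 77.0 ± 25.9 in 1b+/- (n = 4) and 93.6 ± 23.0 in 1b-/- (n = 2). Its coefficient of variation was 24.8%, against 4.12% from counting alone. The log2 fold change was -0.22 ± 0.27 (SE) for 1b+/- and 0.05 ± 0.31 for 1b-/-, each relative to WT. Per kb of exon, *Grin3a* was above *Grin1* in 7 of 8 libraries, the exception being 1b+/- replicate 2. Per kb of coding sequence it was above *Grin1* in 8 of 8. Merged exons come to 9.7 kb for *Grin1*, over 14 transcripts, and 15.78 kb for *Grin3a*, against 2.88 and 3.4 kb of coding sequence. The lengths of the transcripts present in these libraries were not measured, so this order rests on the annotated lengths.

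*Grin3b*, best known from motor neurons, was the lowest member, with 90 counts in all. The counts were 15 and 5 in WT, 13, 20, 27 and 0 in 1b+/- replicates 1 to 4, and 8 and 2 in 1b-/-. Its levels were 1.24 and 0.766 CPM in WT, 0.858, 2.02, 1.31 and 0 CPM in 1b+/-, and 0.979 and 0.501 CPM in 1b-/-. The 0 was in the shallowest library, where 3 counts are worth 1.002 CPM, so it does not separate that animal from the others. The interval of its log2 fold change in 1b-/- against WT ran from -2.39 to 1.63.

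Of the 7 genes, 0 passed the adjusted threshold of 0.05 in 1b+/- against WT, where 0.0834% of the 15588 genes tested passed. There, 0 had an unadjusted p under 0.05 (4.34% of all genes) and 0 had groups that did not overlap (12.3%). In 1b-/- against WT, 0 of 7 passed the adjusted threshold (0.00642% of all genes) and 0 the unadjusted one (1.64%), and 1, *Grin2a*, had groups that did not overlap (23.6%). Between 1b-/- and 1b+/-, 0 of 7 passed the adjusted threshold (0.00642%), 0 the unadjusted one (1.23%) and 0 did not overlap (7.39%). The counts of passing genes were also 0, adjusted and unadjusted, with the likelihood ratio test of edgeR and the Wald test of DESeq2. The smallest unadjusted p of a member in the 3 comparisons was 0.219, 0.298 and 0.203. All 7 passed the filter on low counts, which asks for 1 CPM in at least 1 library.

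The member estimates ran from -0.22 to 0.68 in 1b+/- against WT (median -0.08), from -0.38 to 0.67 in 1b-/- against WT (median 0.09) and from -0.57 to 0.42 in 1b-/- against 1b+/- (median 0.14), on the log2 scale. Over all genes tested the medians were 0.01, -0.01 and 0.00. For scale, the estimates for *Scn1a* in the same fit were -0.90 ± 0.21 (SE, adjusted p = 0.381), -3.97 ± 0.32 (adjusted p = 0.000596) and -3.07 ± 0.30 (adjusted p = 0.00491). The 7 neuronal markers summed to 6788 and 6823 CPM in WT, 5763 to 6731 in 1b+/- and 6385 and 6799 in 1b-/-, so both WT libraries were above all 1b+/- libraries. The 6 astrocyte markers summed to 557 and 753 CPM in WT, 757 to 847 in 1b+/- and 641 and 675 in 1b-/-, and the 6 oligodendrocyte lineage markers to 154 and 175, 204 to 223, and 171 and 190.02, with WT below 1b+/- in each. Their part in the member estimates was not tested. *Grin2b* was the member with the narrowest intervals and *Grin3b* the one with the widest.

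**Figure D2:**
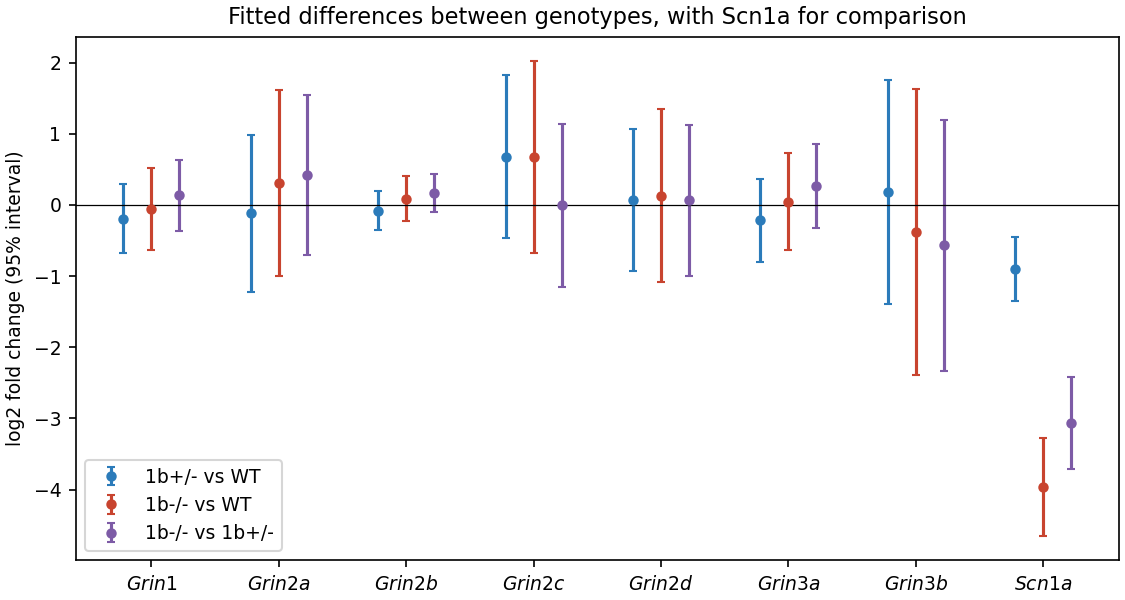
Fitted log2 fold changes of the 7 subunit genes and of *Scn1a* in 3 comparisons, with edgeR quasi-likelihood 95% intervals as bars. Every interval of a subunit gene crosses 0, from the narrow ones of *Grin2b* to those of *Grin3b*, whereas the intervals of *Scn1a* lie below 0.

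A slope on the number of deleted alleles (0, 1 or 2), which draws on all 8 animals, ran from -0.16 to 0.34 per allele over the 7 genes (log2, median 0.04). For *Grin2b* it was 0.04 ± 0.07 (SE, 95% interval -0.11 to 0.20), and for *Grin1* -0.03 ± 0.13. In this fit 0 of 7 passed the adjusted threshold (0.0385% of all genes) and 0 the unadjusted one (1.73%). Sex could be compared only within 1b+/-, between 2 females and 2 males. There the estimates of female against male ran from -0.73 (*Grin2d*) to 0.04 (*Grin2a*), with 0 of 7 past the adjusted threshold (0.0321% of all genes) and 0 past the unadjusted one (2.66%). The *Grin2d* estimate included the 3 counts of 1b+/- replicate 4.

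The shares in the subunit pool overlapped between the 3 genotypes for all genes but *Grin2a* in 1b-/- against WT. Per kb of exon the *Grin2a* share was 0.892% and 1.150% in WT and 1.156% and 1.230% in 1b-/-, from the few counts given above. Of the summed CPM per kb of exon of the 7 genes, *Grin2b* took 68.5% ± 4.58 (SD, n = 8; range 62.8% to 75.4%), *Grin3a* 14.99% ± 3.11 and *Grin1* 12.1% ± 1.90. *Grin2d*, *Grin2c*, *Grin2a* and *Grin3b* averaged 1.51%, 1.06%, 1.02% and 0.821%. By coding length the share of *Grin2b* was 52.2% and that of *Grin3a* 28.5%, because the merged exons of *Grin3a* are mostly non-coding. Among the 4 GluN2 genes alone, *Grin2b* made up 94.99% ± 1.17 per kb of exon (range 93.3% to 96.9%), and 96.2% per kb of coding sequence. Per kb of exon the share of *Grin2b* in the whole pool was 69.9% and 65.1% in WT, 62.8% to 75.4% in 1b+/- and 72.8% and 63.7% in 1b-/-, so 1b+/- spanned the other groups.

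**Figure D3:**
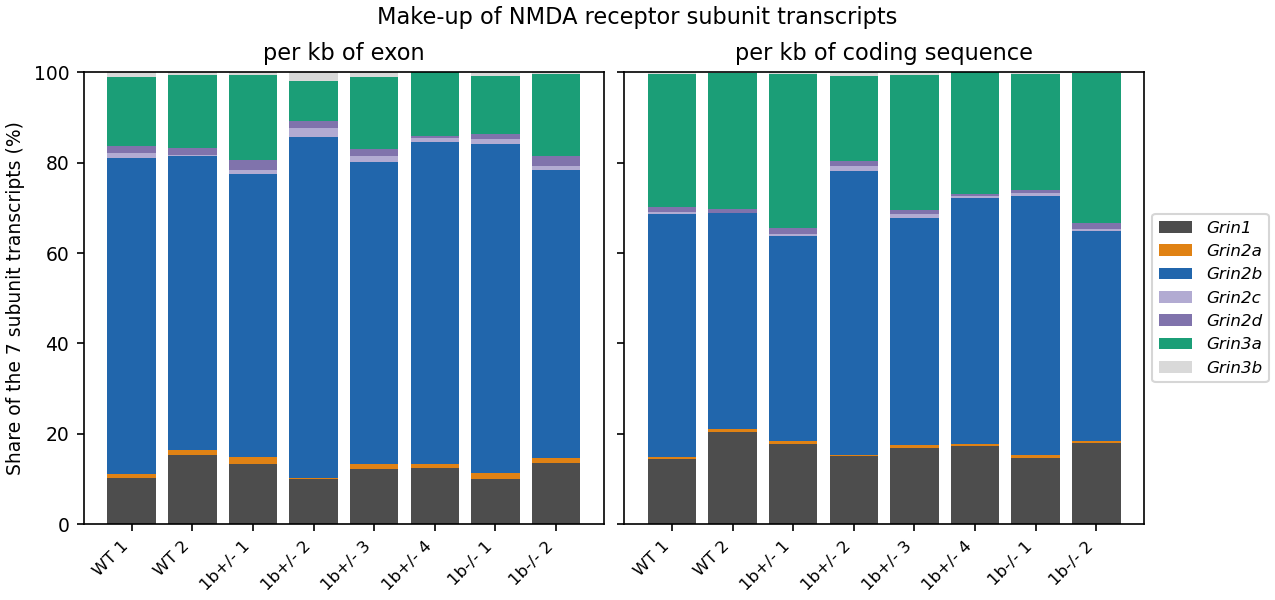
Share (%) of each subunit gene in the summed length-scaled CPM of the 7 genes, with 1 stacked bar per library, per kb of exon on the left and per kb of coding sequence on the right. *Grin2b* is the largest block in all 8 libraries on both scales, from 62.8% to 75.4% per kb of exon, and *Grin2a* is a sliver of about 1.02% on average.

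The ratio of *Grin2b* to *Grin2a* at P7 was high in every animal, and the genotypes overlapped. Per kb of exon it was 78.4 and 56.6 in WT, 44.5, 188, 60.9 and 85.5 in 1b+/- replicates 1 to 4, and 63.0 and 51.8 in 1b-/-. One animal, 1b+/- replicate 2, had a ratio above all others, and both extremes fell within 1b+/-. The counting intervals were wide, since *Grin2a* gave 4 to 42 counts per library. For 1b+/- replicate 2 the interval was 90.9 to 467, for 1b+/- replicate 4 33.2 to 315, and for 1b+/- replicate 1, with 41 *Grin2a* counts, 32.7 to 62.2. The intervals of 1b+/- replicates 1 and 2 do not overlap.

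Mean ratios were 67.5 ± 15.4 in WT (SD, n = 2), 94.6 ± 64.2 in 1b+/- (n = 4) and 57.4 ± 7.91 in 1b-/- (n = 2). Without 1b+/- replicate 2 the 1b+/- mean was 63.6 ± 20.7 (n = 3), close to WT. Over all 8 animals the mean was 78.5 ± 46.1, and without that animal it was 62.9 ± 14.5 (n = 7, range 44.5 to 85.5). An exact two-sided permutation test of the log2 ratio over the 3 genotypes gave p = 0.795 (420 arrangements, smallest possible p 0.00476). The log2 differences were 0.29 ± 0.50 (SE) for 1b+/- minus WT, -0.22 ± 0.27 for 1b-/- minus WT and -0.51 ± 0.47 for 1b-/- minus 1b+/-. Exact permutation tests of the 3 pairs gave p = 0.733, 0.667 and 0.667, each 0.733 after adjustment over the pairs, but the smallest p these could reach was 0.0667, 0.333 and 0.0667.

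**Figure D4:**
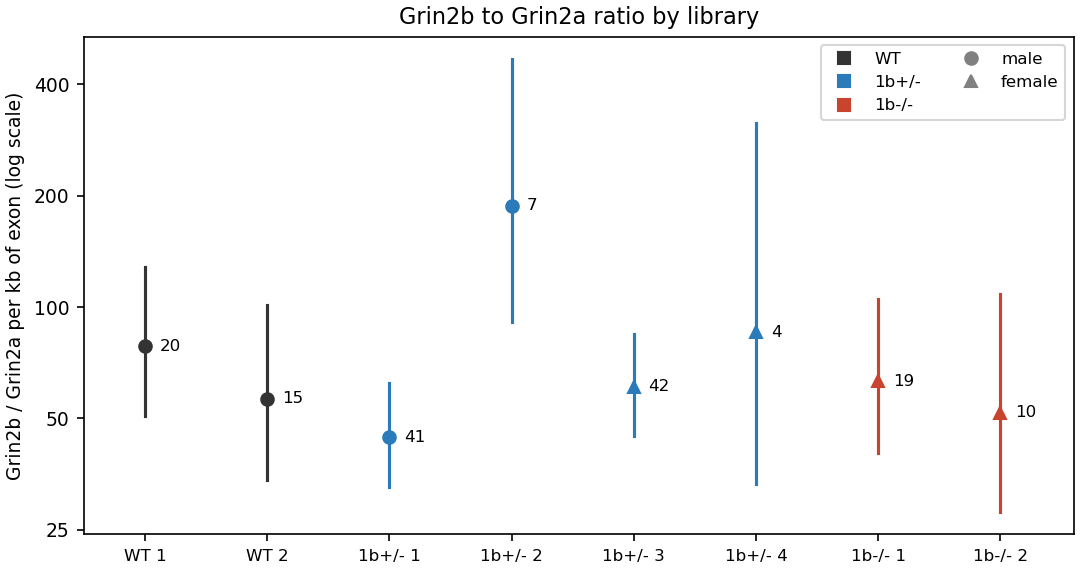
Ratio of *Grin2b* to *Grin2a* per kb of exon (log axis) in each library, with exact 95% counting intervals as lines and the number of *Grin2a* counts beside each point, coloured by genotype (circles male, triangles female). The other libraries lie between 44.5 and 85.5, and 1b+/- replicate 2, with 7 *Grin2a* counts, lies at 188.

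The size of the ratio depends on the length used, and was lowest per kb of exon, where the mean was 78.5. In raw counts there were 68.7 to 289 *Grin2b* reads for each *Grin2a* read (mean 121), and per kb of coding sequence the ratio ranged from 67.8 to 286 (mean 120 ± 70.2). As a share of the counts of the pair, *Grin2a* took from 0.344% (95% interval 0.139% to 0.708%) in 1b+/- replicate 2 to 1.44% (1.03% to 1.94%) in 1b+/- replicate 1. The 8 shares varied more than counting error alone, with a chi-square of 2.33 per degree of freedom. Within 1b+/- it was 4.92, and over all libraries without 1b+/- replicate 2 it was 0.945. The origin of this spread was not tested.

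In 1b+/- replicate 2, *Grin1*, *Grin2a* and *Grin3a* were each at the lowest level of the 8 libraries, at 31.9, 0.707 and 46.8 CPM, while *Grin2b* was at 205 CPM. Relative to their own means over the 8 libraries on the log2 scale, *Grin1* deviated by -0.37, *Grin2a* by -1.16, *Grin3a* by -0.81 and *Grin2b* by 0.05. The high ratio in this animal was thus a low *Grin2a* and not a high *Grin2b*. The library also had the lowest summed levels of the markers of choroid plexus (given above), of interneurons (7 markers, 433 CPM against 508 to 685 in the others), of striatum (7 markers, 130 against 150 to 232) and of neurons in general (7 markers, 5763 against 5846 to 6823). It had the highest sums for neocortex (6 markers, 1246 CPM against 669 to 1099) and for the cerebellar list (8 markers, 473 against 247 to 373). Single markers carried some of these sums. In this library *Sst* was at 24.9 CPM against 80.3 to 138 in the others, while *Gad2* and *Npy* lay within the range of the others. *Tubb3* was at 913 CPM against 1078 to 1913, while *Elavl4* was second highest, and *Zic1* was at 335 against 135 to 240.1. No marker in these lists was at 0 in every library. The part of this make-up in the subunit levels was not tested.

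**Figure D5:**
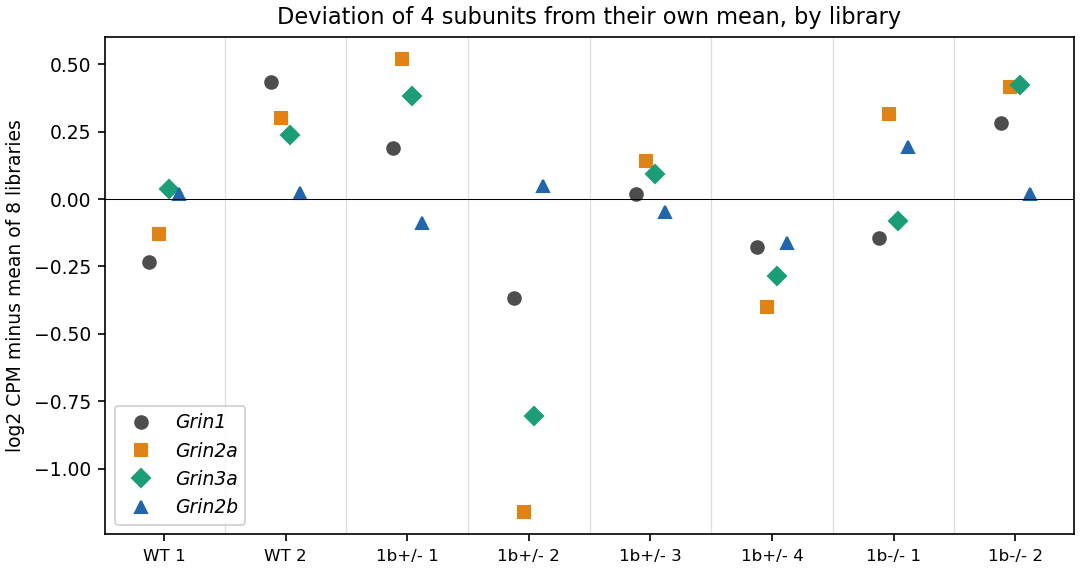
Deviation of *Grin1*, *Grin2a*, *Grin3a* and *Grin2b* from their own mean over 8 libraries (log2 CPM), with 1 column per library and 1 symbol per gene. In 1b+/- replicate 2, *Grin2a* lies at -1.16, *Grin3a* at -0.81 and *Grin1* at -0.37, while *Grin2b* stays within -0.16 to 0.19 in all libraries.

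Across the 8 libraries *Grin2a* and *Grin3a* varied together most closely of the 21 pairs, at r = 0.942 (Pearson, log2 CPM) and rho = 0.833 (Spearman). *Grin1* followed *Grin3a* (r = 0.821, rho = 0.857) and *Grin2a* (r = 0.760, rho = 0.762). *Grin2b* followed none of these, with r of -0.12 for *Grin1*, 0.07 for *Grin2a* and -0.12 for *Grin3a*. *Grin2c* ran opposite to *Grin1* (r = -0.73, rho = -0.62). These values describe 8 libraries that differ in depth, genotype, sex and tissue make-up, and the highest of them includes the distant point of 1b+/- replicate 2.

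The genes whose levels most resembled those of a subunit over the 8 libraries were sought among genes with a mean of at least 10 CPM. For *Grin1* they included *Rptor* (r = 0.977) and *Arhgap23* (0.972). For *Grin2a* they were *Cmpk2* (0.995), *Lingo2* (0.968) and *Vwc2l* (0.967). For *Grin2b* they were *Gltscr1l* (0.942), *Tgoln1* (0.940) and *Zbtb7a* (0.938). Between 9608 and 9609 genes were searched over 8 libraries, so these values are a description only.

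The genes around the receptor were read from a list of 59 in 5 classes, of which 58 could be tested. *Dao*, for the enzyme that degrades D-serine, did not pass the filter. In each of the 3 comparisons 0 of 58 passed the adjusted threshold. At an unadjusted p under 0.05 there was 1 in 1b+/- against WT, where 4.34% of all genes passed, 0 in 1b-/- against WT (1.64%) and 0 between 1b-/- and 1b+/- (1.23%). The median log2 fold change over the list was -0.11 for 1b+/- and -0.06 for 1b-/- relative to WT, and 0.08 between 1b-/- and 1b+/-. Groups did not overlap for 8, 14 and 6 of the 58, beside 12.3%, 23.6% and 7.39% of all genes.

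The gene with that unadjusted p, a count no higher than the background share, was *Ptpn5*, which encodes STEP, the tyrosine phosphatase that dephosphorylates GluN2B. It was at 134 ± 16.5 CPM in WT (SD, n = 2, 122 and 145), 99.4 ± 12.1 in 1b+/- (n = 4, 86.5 to 116) and 114 ± 2.15 in 1b-/- (n = 2, 113 and 116). All 1b+/- values were below the WT values, with a log2 fold change of -0.42 ± 0.14 (SE, unadjusted p = 0.0131, adjusted p = 1.0, edgeR quasi-likelihood). It is a striatum-rich gene, and the summed striatal markers were 179 to 203 CPM in WT, 130 to 206 in 1b+/- and 172 to 232 in 1b-/-. Their part in the *Ptpn5* value was not tested.

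In the anchoring class of 19 genes, 0 passed either threshold in the 3 comparisons. The genes nearest to it were *Shank2*, a scaffold of the postsynaptic density, with a log2 estimate of 0.38 ± 0.18 (SE) in 1b-/- against 1b+/-, and *Dlg2*, for the scaffold PSD-93, with -0.29 ± 0.14 in 1b+/- against WT. *Dlg2* was at 370.1 ± 18.4 CPM in WT (SD, n = 2), 303 ± 28.0 in 1b+/- (n = 4) and 352 ± 56.5 in 1b-/- (n = 2). The most abundant was *Lin7c*, a PDZ protein of the receptor transport complex, at 839 ± 55.7, 737 ± 89.1 and 779 ± 94.7 CPM in the same order. Of the class, 16 estimates were below 0 in 1b+/- against WT (7473 of all 15588 genes), 12 in 1b-/- against WT (7962 of all genes) and 4 between 1b-/- and 1b+/- (7943 of all genes), comparisons that share libraries.

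Among the 19 kinases and signalling genes, *Ptpn5* alone passed the unadjusted threshold in the 3 comparisons between genotypes. Between females and males within 1b+/-, 2 of the 19 passed it, beside 2.66% of all genes, and 0 passed the adjusted one. The 2 were *Camk2b* and *Calm2* (unadjusted p = 0.0318 and 0.0383, edgeR quasi-likelihood). The most abundant of the 19 was *Calm3*, a gene for calmodulin, which binds GluN1 in the presence of calcium. It was at 1412 ± 221 CPM in WT (SD, n = 2), 1306 ± 241 in 1b+/- (n = 4) and 1357 ± 322 in 1b-/- (n = 2). *Calm2*, which encodes the same protein, had a log2 estimate of -0.30 ± 0.16 (SE) in 1b+/- against WT, with overlapping groups. Its estimate in female against male within 1b+/- was 0.38 ± 0.16 (SE), opposite in sign. The WT animals were male, and the part of sex in the *Calm2* estimate against WT was not tested. The assignment of reads between *Calm2* and *Calm3* was not checked.

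Of the 7 tested genes that make or move the co-agonists, 0 passed either threshold. *Slc1a4*, a neutral amino acid transporter that carries serine, was at 106 ± 8.51 CPM in WT (SD, n = 2), 115 ± 4.80 in 1b+/- (n = 4) and 126 ± 6.27 in 1b-/- (n = 2), and WT and 1b-/- did not overlap. *Srr*, for the enzyme that makes D-serine, was at 63.8 ± 5.73, 57.3 ± 5.31 and 63.1 ± 1.08 CPM. *Shmt2*, for the mitochondrial enzyme that interconverts serine and glycine, was at 27.1 ± 0.557, 27.8 ± 1.39 and 23.5 ± 2.12 CPM. Of the 7, groups did not overlap for 2 in 1b-/- against WT (23.6% of all genes) and 2 between 1b-/- and 1b+/- (7.39%). In each comparison these were *Slc1a4*, higher in 1b-/-, and *Shmt2*, lower in 1b-/-.

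The 8 genes of glutamate supply and uptake likewise held 0 calls at either threshold. *Slc17a6*, for the vesicular glutamate transporter VGLUT2, ranged from 80.5 to 172 CPM within 1b+/- alone. The astrocyte genes *Glul* (glutamine synthetase) and *Slc1a3* (the transporter GLAST) were the most abundant of the class, at 497 ± 65.2 and 386 ± 34.4 CPM in WT (SD, n = 2), 490 ± 86.0 and 407 ± 51.3 in 1b+/- (n = 4), and 474 ± 86.9 and 362 ± 23.2 in 1b-/- (n = 2). *Glul*, *Slc1a3* and *Slc17a6* overlapped between the groups of the comparisons in which they were named.

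Of 5 transcription factors tied to *Grin* genes, 0 passed either threshold. *Rest*, the repressor of neuronal genes linked to the *Grin2b* to *Grin2a* switch, was at 17.9 and 21.3 CPM in WT, 23.6 to 26.7 in 1b+/- and 17.8 and 25.8 in 1b-/-. Its 1b+/- values were all above WT and the 1b-/- values spanned both, with a log2 estimate of 0.36 ± 0.19 (SE) in 1b+/- against WT. *Mef2c*, an activity-regulated factor, was at 1655 and 1665 CPM in WT, 868 to 1552 in 1b+/- and 1052 and 1987 in 1b-/-. *Tbr1*, a cortical projection neuron factor that acts on *Grin2b*, was at 289 ± 11.8 CPM in WT (SD, n = 2), 256 ± 78.0 in 1b+/- (n = 4) and 276 ± 44.1 in 1b-/- (n = 2).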

How the data were processed

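Stranded mRNA libraries from 8 P7 mice were read from a single end in 50-base reads. The authors aligned reads to mm9 with STAR 2.7.2 and deposited featureCounts counts per gene symbol, with no normalization. Use of strand and the handling of reads with several matches are not given in the sources used here. Genotype, sex and age came from the sample labels, and that replicates are separate animals rests on these labels. Replicate numbers follow the order of the samples and pair no animals.

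A gene entered the test if any library reached 1 CPM (15588 of 24015). Testing was done in R 4.3.3 with the quasi-likelihood test of edgeR 4.0.16, TMM scaling and no factor but genotype, in 1 fit of 8 libraries, with Benjamini-Hochberg adjustment at 0.05. The *Grin2b* to *Grin2a* ratio was tested by exact permutation. Alternatives were upper quartile and RLE scaling, filterByExpr or no filter, the likelihood ratio test, DESeq2 1.42.0, sex as a covariate, fits within a sex or of the compared groups, a pseudocount of 1 or coding length for the ratio, and omission of each library. The fit was tested on simulated data. Correlations used log2 CPM with a prior count of 2. Lengths and positions are from GENCODE vM1.

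All members were named. Per class of pathway genes, the genes named were those with the smallest unadjusted p and the highest mean CPM, and some of the genes these rules chose are not reported here. The members and lists were chosen with earlier results of these data known.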

Additional observations from a re-analysis of the deposited data

How the results depend on the processing

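The counts of subunit and pathway genes past the adjusted threshold remained 0 in every alternative, and the exact permutation p of the ratio was 0.324 to 0.933 without single libraries and 0.795 to 0.819 otherwise. Over 371 tests of a subunit gene in the 3 genotype comparisons the smallest adjusted p was 0.902, and 1 had an unadjusted p under 0.05 (*Grin2c*, 1b+/- against WT, without WT replicate 1, adjusted p = 1.0). In female against male within 1b+/-, 1 subunit gene had an unadjusted p under 0.05 without 1b+/- replicate 1 and 2 without 1b+/- replicate 3, and in the slope on alleles 0 did in any alternative. With sex as a covariate the log2 fold change of *Grin3b* in 1b-/- against WT was 0.19 and that of *Grin2c* in 1b-/- against 1b+/- was 0.055, the latter 0.037 in females alone. The same covariate moved *Grin2d* relative to WT from 0.13 to 0.86 for 1b-/- and from 0.07 to 0.37 for 1b+/-, and its 1b-/- estimate relative to 1b+/- from 0.06 to 0.49. No paired analysis was possible because the labels give no replicate numbers shared between genotypes.

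Leaving out single libraries turned the sign of some small estimates, none of which passed a threshold in that direction. In 1b+/- against WT the range was -0.50 to 0.17 for *Grin1*, -0.43 to 0.16 for *Grin2a*, -0.21 to 0.24 for *Grin2d* and -0.18 to 0.61 for *Grin3b*. In 1b-/- against WT it was -0.36 to 0.31 for *Grin1*, -0.0027 to 0.17 for *Grin2b*, -0.49 to 0.69 for *Grin2d*, -0.22 to 0.28 for *Grin3a* and -1.03 to 0.041 for *Grin3b*. In 1b-/- against 1b+/- it was -0.084 to 0.34 for *Grin1*, -0.30 to 0.23 for *Grin2c*, -0.56 to 0.62 for *Grin2d* and -0.0028 to 0.50 for *Grin3a*. Where 1 animal was left in a group, it was assumed to vary like the others. *Scn1a* passed in 1b+/- against WT with the likelihood ratio test of edgeR (adjusted p = 0.0218), and lost its call in 1b-/- against 1b+/- without 1b-/- replicate 1 or 2 (log2 -3.51 and -2.85, adjusted p = 0.0984 and 0.104). The cause was not tested.

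Depth and group size limit what can be seen. The 4 lowest subunit genes had 0 to 73 counts per library, and with 2 animals in WT and in 1b-/- the pairwise permutation tests were unable to reach 0.05.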

Other observations

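Some marker lists that the subunit results do not rest on differed between libraries. The 8 epithelial markers came to 155 and 42.1 CPM in the WT libraries and to 1.89 to 6.56 CPM in the 6 mutant libraries. The 7 markers of blood vessels and meninges came to 1195 CPM in 1b+/- replicate 1 and to 331 to 583 CPM in the others. The collagen genes *Col1a1* (380 CPM) and *Col1a2* (539 CPM) carried most of that sum. The endothelial markers *Cldn5* and *Pecam1* lay within the range of the other libraries, and *Kdr*, at 61.8 CPM, was at its lowest there. The thalamic list ranged from 74.5 to 213 CPM, both ends being in WT. Within 1b+/-, the 7 subunit levels and the *Grin2b* to *Grin2a* ratio held no single value that stood apart by Dixon's test for 4 samples.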
